A study of Mus musculus with 18 samples.

Results

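The genes described here build ribosomes: 50 genes for RNA polymerase I (Pol I), its cofactors and the nucleolar factors that modify, cleave and assemble ribosomal RNA. They were chosen by symbol, and all 50 were found among the 55471 genes of the deposited tables. They were picked as genes that are typically driven by Myc, and are therefore set beside the Myc level of each library. Poly-A RNA was sequenced from 18 libraries of a mouse reprogramming system in which doxycycline (DOX) switches on Oct4, Sox2, Klf4 and c-Myc (OSKM) from 1 polycistronic transgene at Col1a1, with the M2rtTA activator at Rosa26. The question the groups address is how pluripotent cells kept by continuous transgene expression differ from those kept in 2iL, a medium with inhibitors of MEK and GSK3 and with LIF.

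The 6 OSKM-ESC and 6 2iL-ESC libraries came from 1 Tet-On-OSKM embryonic stem cell line with an Oct4-GFP reporter, whose strain label joins (C57BL/6 x 129S4/SvJae)F1 and (CBA/CaJ X C57BL/6J)F2, with 2 cultures each at day 18, day 25 and day 38. OSKM-ESCs grew in N2B27 with DOX, and 2iL-ESCs in 2iL without it; both carry the transgene. Another 4 libraries were induced pluripotent stem cell (iPSC) clones made from (C57BL/6 x 129S4/SvJae)F1 fibroblasts: OSKM-iPSC clones 1 and 3, at passages 7 and 6, and 2iL-iPSC clones 3 and 6, at passages 2 and 3. The labels of the 2iL-iPSC samples name N2B27 with DOX as the routine culture, whereas the series text and the study's methods give 2iL; the group name is used here. The last 2 libraries were mouse embryonic fibroblasts (MEFs) of the same F1 strain at passage 4, in serum medium. Pluripotent cells were grown on mitomycin-treated MEF feeders, and every ESC library is of 1 line. The iPSC clones differ in passage within a medium and more between the media. Medium and passage thus cannot be told apart in any contrast of the iPSC media. Reads of Myc from the transgene and from the endogenous gene are counted together. Nothing in the labels says that the 2 cultures of a day were started separately, so the tests measure the spread between these libraries, which may be technical.

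Ribosome production starts in the nucleolus, where Pol I transcribes 1 long precursor from the ribosomal DNA repeats. Small nucleolar ribonucleoproteins (snoRNPs) methylate and pseudouridylate the precursor, the small-subunit processome folds and cleaves it, and further factors bring the 40S and 60S subunits to the point of export. Myc, with its partner Max, binds E-boxes and is known for raising Pol I activity and many of these assembly factors, and embryonic stem cells are known for prominent nucleoli and high ribosome output.

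The values are FPKM (read fragments scaled to transcript length and to the fragments mapped in the library), as the authors deposited them. Every one of the 50 genes exceeded an FPKM of 1 in all 18 libraries; the lowest FPKM was 6.52, and the mean read coverage of a gene ranged from 22.6 for Wdr12 in 1 MEF library, through a median of 228, to 7295. The libraries were of like depth, with 2.99 to 3.62 units of coverage for each unit of FPKM and 11303 to 12095 genes over an FPKM of 1. The labelled cell types were checked by marker lists. The 12 pluripotent cell markers summed to FPKM of 839 to 1411 in OSKM-ESCs, 2439 to 2630 in 2iL-ESCs, 733 and 1490 in OSKM-iPSCs and 2693 and 2914 in 2iL-iPSCs, with none at 0, and to 0.0207 and 0.543 in MEFs, where 11 and 9 of the 12 were at 0. The 16 fibroblast markers summed to 2717 and 2462 in MEFs, 120 to 222 in OSKM-ESCs and 76.7 to 290 in 2iL-ESCs. Their sums were 304 and 89.8 in OSKM-iPSCs and 108 and 118 in 2iL-iPSCs. Bulk RNA cannot separate fewer cells of a type from less RNA per cell, for any value below.

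Myc itself separated the media. Its FPKM in the OSKM-ESC libraries was 67.9 and 95.4 at day 18, 113 and 102 at day 25, and 141 and 135 at day 38. In the 2iL-ESC libraries it was 9.44 and 13.6, 9.96 and 9.04, and 7.57 and 8.09 on the same days. The ranges of the media lay far apart, and over all days Myc was 10.2-fold higher in OSKM-ESCs (log2 fold change 3.35, SE 0.18; limma, Benjamini-Hochberg adjusted p = 3.3e-08). The OSKM-iPSC clones had 71.9 and 42.4, the 2iL-iPSC clones 16.7 and 16.1, and the MEFs 31.3 and 35.7. Mycn, the paralogue that pluripotent cells also use, was 1.87-fold higher in OSKM-ESCs than in 2iL-ESCs (adjusted p = 2.5e-05), at 52.9 to 103 against 37.7 to 51.1, and stood at 0.911 and 0.989 in MEFs. Max did not pass the test between the ESC media (log2 fold change 0.13, SE 0.07, adjusted p = 0.13), and its FPKM ranged over all 18 libraries from 36.3 to 60.5.

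The ribosome biogenesis genes did not follow this split. The median over the 50 genes of log2(FPKM + 1) was 6.21 and 6.14 at day 18, 6.10 and 6.19 at day 25 and 6.12 and 6.07 at day 38 in OSKM-ESCs. In 2iL-ESCs it was 6.28 and 6.39, 5.76 and 5.81, and 6.05 and 5.97. The OSKM-ESC values lay inside the range of the 2iL-ESC values. It was 5.81 and 6.04 in the OSKM-iPSC clones, 6.14 and 5.97 in the 2iL-iPSC clones, and 4.73 and 4.88 in MEFs, so that the MEFs, with more Myc than any 2iL library, had the lowest level. The summed FPKM of Myc and Mycn was 32.2 and 36.7 in MEFs, below the 47.1 to 60.3 of the 2iL libraries. The 50 genes made up 1.43% to 1.65% of all FPKM in OSKM-ESCs, 1.26% to 1.75% in 2iL-ESCs, 1.28% to 1.47% in iPSCs, and 0.544% and 0.603% in MEFs.

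**Figure D1:**
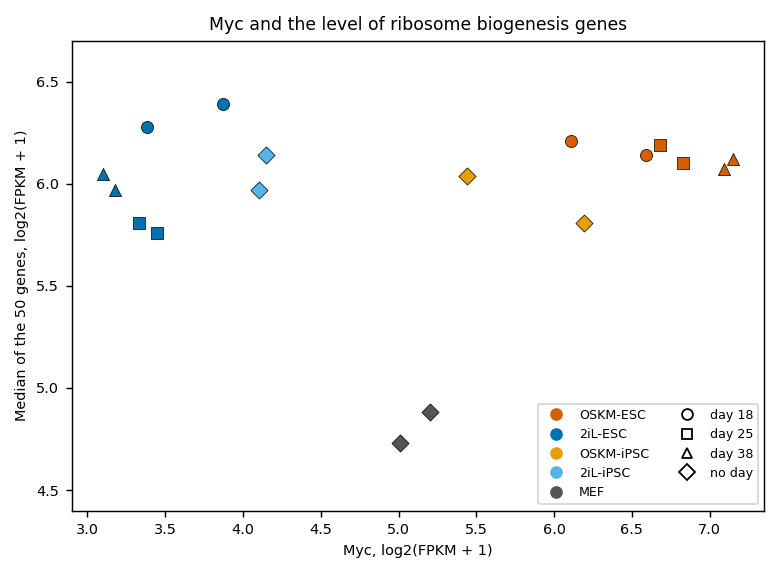
Level of Myc (x axis, log2(FPKM + 1)) and median level of the 50 ribosome biogenesis genes (y axis, log2(FPKM + 1)) in each of the 18 libraries, 1 point a library, coloured by group and shaped by day. The OSKM-ESC and 2iL-ESC points lie far apart on the x axis and overlap on the y axis, and the 2 MEF points (4.73 and 4.88) lie below all others.

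Within a medium the relation to Myc was described over 6 libraries and not tested. In OSKM-ESCs the libraries with more Myc had the lower median (Pearson r -0.82, Spearman rho -0.77), also without the 2 libraries whose Myc was farthest from the median (r -0.82 over 4 libraries) and after taking out the day means (r -0.67). With 2 libraries a day, deviations from a day mean are mirror images, so the r of -0.67 rests on a single difference for each day. The medians themselves ran from 6.07 to 6.21. In 2iL-ESCs r was 0.51 and rho 0.20, and r was -0.12 without the 2 farthest libraries, so that the value rests on those. After taking out the day means r was 0.56 there, with the same limit of a single difference for each day. With median-ratio scaling r was 0.61 in 2iL-ESCs and -0.72 in OSKM-ESCs. With Mycn in place of Myc, r was -0.79 in OSKM-ESCs and -0.69 in 2iL-ESCs (rho -0.77 and -0.66). Gene by gene, the median r with Myc over the 50 genes was -0.57 in OSKM-ESCs, where it was 0.13 over all genes tested, and 0.43 in 2iL-ESCs, where it was -0.08. All libraries of a medium share the line and the medium, and their Myc level moves with the day in OSKM-ESCs (adjusted p = 0.024 in a limma F test across days), so Myc and time in culture cannot be told apart there.

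Promoter sequence was searched for the E-box CACGTG, which reads the same on both strands, and for its variant CACGCG with the reverse complement CGCGTG, in the 250 bases before the RefSeq start (GRCm38.p6). Of the 50 genes 44 had a promoter in the table; Bop1, Tcof1, Npm1, Rrs1, Rrp12 and Fbl did not. CACGTG stood in 3 of the 44 (6.82%: Rrn3, Imp4 and Nop2), against 8.54% of 10205 tested genes and 6.02% of all 32851 promoters. CACGCG or CGCGTG stood in 7 of the 44 (15.9%), against 14.8% and 7.62%. The share of promoters with either motif was thus near that of other expressed genes in this window, which leaves out bases after the start. The stretches below, read 5′ to 3′ on the gene's strand and ending where an annotated exon begins, show the 2 promoters that hold CACGTG outside annotated exons, the promoters of Imp3 and Polr1e, the genes highest in OSKM-ESCs, and those of Polr1b and Dkc1, which were among the genes highest above MEFs; capitals mark CACGTG, and a stretch without capitals holds neither motif.
Rrn3, chr16:13780449-13780698, plus strand: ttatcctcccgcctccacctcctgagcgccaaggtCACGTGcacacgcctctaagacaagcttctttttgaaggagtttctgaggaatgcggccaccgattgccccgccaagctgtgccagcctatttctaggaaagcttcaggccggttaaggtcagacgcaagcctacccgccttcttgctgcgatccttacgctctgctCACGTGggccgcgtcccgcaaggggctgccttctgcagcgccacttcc
Nop2, chr6:125131633-125131882, plus strand: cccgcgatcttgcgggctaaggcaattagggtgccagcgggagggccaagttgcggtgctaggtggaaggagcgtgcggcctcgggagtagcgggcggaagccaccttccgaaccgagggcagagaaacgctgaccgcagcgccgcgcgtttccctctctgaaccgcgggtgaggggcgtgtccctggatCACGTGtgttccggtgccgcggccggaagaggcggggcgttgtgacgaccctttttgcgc
Imp3, chr9:56937250-56937474, plus strand: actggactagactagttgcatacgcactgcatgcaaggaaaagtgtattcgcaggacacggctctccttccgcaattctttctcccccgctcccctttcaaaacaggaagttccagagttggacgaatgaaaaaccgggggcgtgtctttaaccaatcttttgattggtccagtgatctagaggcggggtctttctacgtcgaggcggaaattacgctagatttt
Polr1e, chr4:45018359-45018582, plus strand: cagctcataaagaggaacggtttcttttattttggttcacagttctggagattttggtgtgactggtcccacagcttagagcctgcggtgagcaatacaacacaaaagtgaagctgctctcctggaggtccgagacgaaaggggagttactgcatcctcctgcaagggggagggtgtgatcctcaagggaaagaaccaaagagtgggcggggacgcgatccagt
Polr1b, chr2:129100746-129100994, plus strand: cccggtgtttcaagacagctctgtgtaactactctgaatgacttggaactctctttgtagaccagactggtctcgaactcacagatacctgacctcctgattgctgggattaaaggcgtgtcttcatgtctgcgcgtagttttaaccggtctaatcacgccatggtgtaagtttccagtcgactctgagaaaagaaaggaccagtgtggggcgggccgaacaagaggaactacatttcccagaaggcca
Dkc1, chrX:75095604-75095853, plus strand: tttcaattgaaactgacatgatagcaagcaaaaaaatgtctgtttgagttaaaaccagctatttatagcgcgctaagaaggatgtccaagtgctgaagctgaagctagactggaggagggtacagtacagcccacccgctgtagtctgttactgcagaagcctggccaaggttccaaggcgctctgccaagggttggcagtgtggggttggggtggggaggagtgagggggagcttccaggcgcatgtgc
The E-boxes of Rrn3 began 215 and 48 bases before its start and that of Nop2 began 60 bases before. The 3 genes with CACGTG had log2 fold changes of -0.30 (Rrn3) to 0.17 (Imp4) between OSKM-ESCs and 2iL-ESCs, inside the range of the 41 without it (-0.31 to 0.46), whose median was 0.03.

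Levels ranged widely between the genes. FPKM is scaled per length, so levels can be compared between genes. Over the 16 ESC and iPSC libraries Npm1, the abundant nucleolar chaperone nucleophosmin, averaged 2046 ± 372 (SD, n = 16), followed by the nucleolar protein nucleolin (Ncl) at 337 ± 54.3, the rRNA 2′-O-methyltransferase fibrillarin (Fbl) at 258 ± 29.0 and its partner Nop56 at 249 ± 19.8. Polr1e, a Pol I-specific subunit, was lowest at 14.8 ± 2.95, next to the 60S assembly factor Noc3l at 16.6 ± 4.32. Neighbours such as Fbl, Nop56 and Nhp2 (236 ± 49.5) differed by less than their SD. Nop14 of the small-subunit processome had the smallest SD for its level, at 48.6 ± 3.31. Rrs1, a 60S assembly factor, stood at 61.3 to 94.2 in the ESC libraries and at 35.4 to 40.6 in the iPSC clones, which are of another line and strain. Npm1 has processed copies elsewhere in the genome, and with uniquely mapped reads only, part of its signal may be missing in every library.

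**Figure D2:**
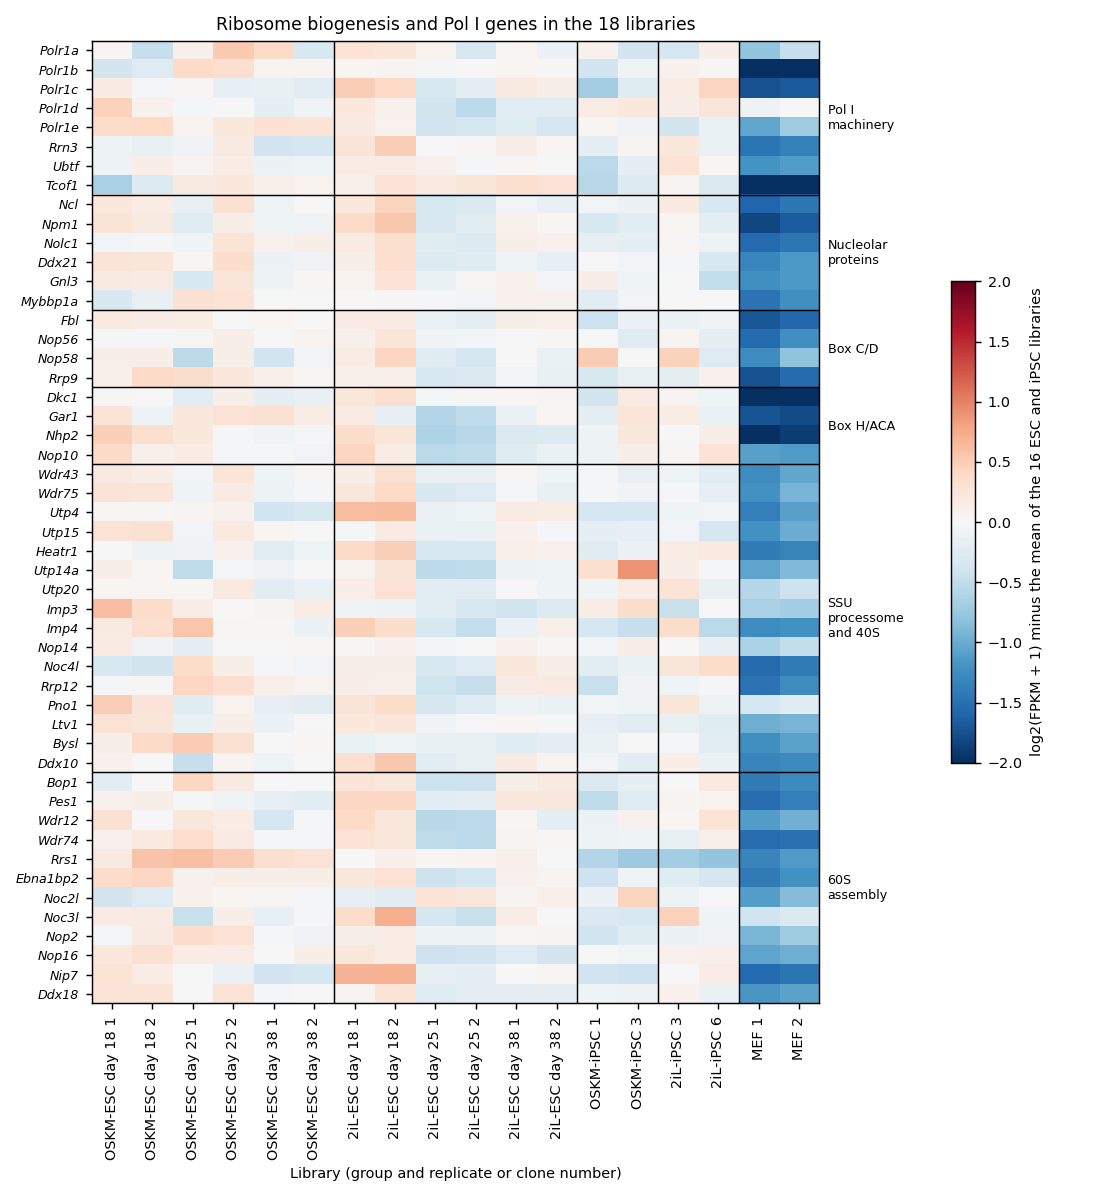
Level of each of the 50 genes (rows, grouped by role) in each of the 18 libraries (columns), as log2(FPKM + 1) minus the gene's mean over the 16 ESC and iPSC libraries, from blue (lower) to red (higher). The MEF columns are blue for nearly all genes, and among ESCs the 2iL-ESC columns of day 18 are mostly red and those of day 25 mostly blue.

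Between the ESC media over all days, 17 of the 50 genes passed the test: 11 were higher in OSKM-ESCs, against 29.5% of all 14016 genes tested, and 6 were lower, against 24.4%. The share of the 50 that passed in either direction was 34.0%, below the 53.8% of all genes. The largest increase was 1.37-fold, and the median log2 fold change was 0.06 (0.03 over all genes). The counts rested on the days: without day 25, a choice made after the values were seen, 5 were higher and 14 lower with a median of -0.09 (32.6% and 22.1% of all genes), and without day 18 or day 38 none was lower (24.2% and 20.2% of all genes); leaving out 1 library gave 10 to 12 higher and 1 to 7 lower. By the cutoff of the study, a 2-fold change of the mean with an unadjusted p under 0.05, none of the 50 was called in either direction, against 13.6% of all genes higher and 10.5% lower; at an unadjusted p under 0.05 alone, limma gave 12 higher and 7 lower, against 32.4% and 26.8% of all genes. In 3 genes, Imp3, Bysl and Rrs1, every OSKM-ESC library lay above every 2iL-ESC library, against 14.6% of all genes, and in none did every 2iL-ESC library lie above, against 12%.

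Of the 8 genes for Pol I and its cofactors, 2 were higher and 2 lower in OSKM-ESCs, near the 29.5% and 24.4% of all genes. Polr1e ranged from 15.3 to 19.4 (median 17.9) in OSKM-ESCs and from 10.9 to 16.6 (median 11.7) in 2iL-ESCs. It overlapped only through day 18 of 2iL and was 1.36-fold higher (log2 fold change 0.44, SE 0.07, adjusted p = 2.0e-04). Polr1d, a small subunit shared with RNA polymerase III, was 1.16-fold higher (adjusted p = 0.038), with an OSKM-ESC library of day 18 at 89.3 and the other 5 at 56.8 to 68.7.

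Rrn3, the factor TIF-IA that brings Pol I to the promoter, was lower: its 6 OSKM-ESC values ran from 44.8 through a median of 53.9 to 66.6 and its 2iL-ESC values from 58.4 through 62.8 to 82.6. The ranges overlapped in part, and the log2 fold change was -0.30 (SE 0.09, adjusted p = 0.017). Tcof1, the nucleolar scaffold treacle, ran from 52.0 to 95.2 (median 87.1) in OSKM-ESCs and from 88.6 to 104 (median 98.1) in 2iL-ESCs, with a log2 fold change of -0.30 (SE 0.10, adjusted p = 0.023).

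The catalytic core of Pol I did not pass the test. Polr1a, its largest subunit, ran from 23.6 to 47.2 in OSKM-ESCs and from 26 to 40.1 in 2iL-ESCs, and its partner in the catalytic centre, Polr1b, from 29.9 to 51.8 and from 38.4 to 40.7. Both had a log2 fold change of 0.01 (SE 0.17 and 0.10). The 6 values of Polr1b in 2iL-ESCs lay close together, and those in OSKM-ESCs were lowest at day 18. Ubtf, the HMG-box protein that coats active ribosomal DNA, ran from 78.7 to 95 and from 83.8 to 95.6 (log2 fold change -0.06, SE 0.06). For Polr1c, shared with Pol III, the log2 fold change was -0.17 (adjusted p = 0.13).

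None of the 6 abundant nucleolar proteins (Ncl, Npm1, Nolc1, Ddx21, Gnl3 and Mybbp1a) passed the test in limma, against 53.8% of all genes. At an unadjusted p under 0.05 limma gave 0, against 32.4% of all genes higher and 26.8% lower. The RNA helicase Ddx21 came nearest (log2 fold change 0.17, SE 0.08, adjusted p = 0.11). Npm1 ran from 1698 to 2413 (median 2054) in OSKM-ESCs and from 1625 to 2906 (median 2105) in 2iL-ESCs, and Ncl from 302 to 410 and from 266 to 452. Gnl3, the GTP-binding protein nucleostemin, ran from 110 to 161 and from 124 to 166. For these 3 the 2iL-ESC values included the highest library, and the log2 fold changes were -0.06, 0.10 and -0.01 (SE 0.09, 0.10 and 0.09).

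Among all genes 29.5% were higher and 24.4% lower in OSKM-ESCs. Of the 4 box C/D proteins only Rrp9, a protein of the U3 particle, was higher in OSKM-ESCs (1.23-fold, adjusted p = 0.0090). Fbl ran from 255 to 293 in OSKM-ESCs and from 224 to 287 in 2iL-ESCs, and Nop56 from 243 to 270 and from 236 to 292, with log2 fold changes of 0.05 and -0.01 (SE 0.06 for both). Of the 4 box H/ACA proteins, which carry pseudouridylation and also bind telomerase RNA, Gar1 (1.30-fold, adjusted p = 0.016) and Nhp2 (1.26-fold, adjusted p = 0.0087) were higher. Dkc1, the pseudouridine synthase itself, was lower (log2 fold change -0.17, SE 0.06, adjusted p = 0.039), at 90.8 to 114 against 102 to 132, and Nop10 did not pass (0.23, adjusted p = 0.082).

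Of the 16 factors of the small-subunit processome and 40S maturation, 2 were higher and 1 lower, against 29.5% and 24.4% of all genes. Imp3, a protein of the U3 snoRNP, had 76.7 and 64.5, 54.2 and 49.9, and 51.4 and 54.9 in OSKM-ESCs of days 18, 25 and 38, and 46.9 and 45.8, 42.5 and 39.3, and 37.3 and 40.7 in 2iL-ESCs. The groups did not overlap, and the log2 fold change was 0.46 (SE 0.07, adjusted p = 1.1e-04), the highest of the 50. Bysl, which acts late on the 40S precursor, ran from 29.8 to 42.7 against 24.7 to 28 (0.38, SE 0.07, adjusted p = 7.4e-04). Utp4, of the subcomplex that links transcription and processing, was the lowest of the 50 (-0.31, SE 0.11, adjusted p = 0.029), at 77.2 to 107 against 93.5 to 157. The large scaffolds Heatr1 (32.0 to 39.9 against 29.8 to 52.6) and Utp20 (26.5 to 35.3 against 26.1 to 37.5) overlapped fully, with log2 fold changes of -0.14 (SE 0.11) and 0.01 (SE 0.09).

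Among all genes 29.5% were higher and 24.4% lower. Of the 12 factors of 60S assembly, 4 were higher (Rrs1, Nop16, Ebna1bp2 and Ddx18, by 1.17- to 1.28-fold) and 2 lower (Nip7, log2 fold change -0.25, and Noc2l, -0.13). Rrs1, which brings the 5S particle into the 60S precursor, had the smallest adjusted p of these (0.0013) and stood at 69.5 to 94.2 against 61.3 to 66.1, with no overlap. Pes1 and Bop1, partners in the PeBoW complex, did not pass: Pes1 ran from 90.8 to 114 in OSKM-ESCs and from 90.9 to 141 in 2iL-ESCs (-0.20, SE 0.08, adjusted p = 0.059), and Bop1 from 60.4 to 94.5 and from 52.3 to 85.0 (0.07, SE 0.15, adjusted p = 0.71).

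Taken day by day, the contrast of the media changed direction. At day 18, 1 gene was higher in OSKM-ESCs (25.7% of all genes) and 10 were lower (17.7%). At day 25, 24 were higher (20.7%) and none lower (25.3%), also at an unadjusted p under 0.05, where limma gave 28 higher and 0 lower (24.3% and 29.8% of all genes). At day 38, 9 were higher (34.6%) and 11 lower (25.2%). The median log2 fold changes of the 50 genes were -0.12, 0.33 and -0.06, against 0.07, -0.05 and 0.07 over all genes tested. With 2 libraries a group, these counts depended on single libraries: without either 2iL-ESC library of the day, 0 were lower at day 18, against 9.01% and 8.68% of all genes, and 4 were higher at day 25, against 9.72% and 9.78%.

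The medium contrast itself differed between days in 24 of the 50 genes (limma F test of the interaction, adjusted p under 0.05), against 37.9% of all genes. Bop1 had 60.4 and 70.8 in OSKM-ESCs against 85.0 and 83.6 in 2iL-ESCs at day 18, 94.5 and 80.8 against 52.3 and 52.8 at day 25, and 71.2 and 71.2 against 77.5 and 80.7 at day 38. It was thus lower in OSKM-ESCs at the first and last day, where its log2 fold changes were -0.36 and -0.15, and higher at day 25, where it was 0.72 (SE 0.10, adjusted p = 0.0039); the interaction had an adjusted p of 5.2e-04. Rrp12, an export factor for both subunits, had 34.3 and 35.3 against 38.4 and 37.2 at day 18 and 46.5 and 44.2 against 26.2 and 24.9 at day 25, the smallest interaction p of the 50 (adjusted p = 1.1e-04).

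Heatr1 went from a log2 fold change of -0.49 at day 18 to 0.32 at day 25 and -0.26 at day 38, with adjusted p values of 0.011, 0.038 and 0.015. Polr1b went from -0.36 (adjusted p = 0.036) to 0.37 (adjusted p = 0.016), with an interaction p of 9.0e-04. Imp3 was the only gene higher at day 18 and was higher on every day (0.59, 0.34 and 0.44), and Rrn3 was lower at day 18 and day 38 (-0.50 and -0.45). Gar1 was the highest at day 25 together with Rrp12 (both 0.80, adjusted p = 0.0016 for Gar1), and with Wdr74 and Wdr12, WD-repeat factors of the 60S subunit, at 0.77 and 0.73.

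**Figure D3:**
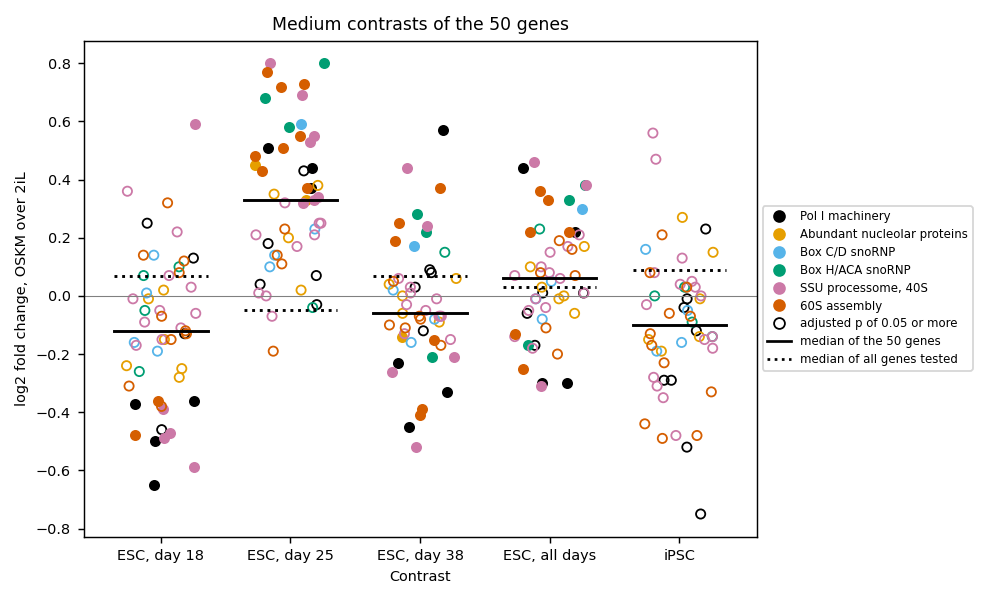
Log2 fold change of OSKM over 2iL (y axis) for each of the 50 genes, 1 point a gene, coloured by role, for ESCs on each day and over all days and for iPSCs. Filled points passed an adjusted p of 0.05, solid bars are the median of the 50 genes and dotted bars that of all genes tested; the 50 genes sit above all genes at day 25 (0.33 against -0.05) and below them at day 18 and day 38.

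Across days, 39 of the 50 genes differed in 2iL-ESCs (limma F test), against 50.8% of all genes, and 11 in OSKM-ESCs, against 38.6%. Without 1 library the counts were 32 to 40 in 2iL-ESCs and 1 to 22 in OSKM-ESCs, with 1 after leaving out either library of day 38 (15.2% and 16.2% of all genes) and 22 without replicate 2 of day 25 (43.3%). In 2iL-ESCs 41 of the 50 had the order day 18 above day 38 above day 25, an order that 22.7% of all genes had, and the median change from day 18 to day 25 was -0.50 on the log2 scale (0.12 over all genes) and that from day 25 to day 38 was 0.19 (-0.04 over all genes).

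All 8 box C/D and H/ACA proteins differed across the days of 2iL, as did 11 of 12 factors of 60S assembly and 12 of 16 of the small-subunit processome. Of the abundant nucleolar proteins 4 of 6 did, and of the Pol I genes 4 of 8. The share over all genes was 50.8%. Npm1 went from 2631 and 2906 at day 18 to 1625 and 1719 at day 25 and 2155 and 2056 at day 38 (adjusted p = 0.0012). Ncl went from 388 and 452 to 266 and 273 and to 320 and 302 (adjusted p = 0.0033). Both genes were highest at day 18 and lowest at day 25, with no overlap between the days.

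Noc3l had the largest change between day 18 and day 25, -0.94 on the log2 scale (21.2 and 27.2, then 12.5 and 11.7). It was followed by Nhp2 at -0.89 (296 and 273, then 150 and 156) and Nip7 at -0.87 (74.8 and 75.6, then 40.9 and 40.6). The limma F test across all days gave adjusted p values of 0.0044, 4.3e-04 and 2.8e-04 in this order. Day 25 was not tested against day 18 alone. Noc2l, which is also a histone acetyltransferase inhibitor, went the other way, from 50.9 and 49.6 to 69.7 and 67.3 and to 60 and 61.7 (adjusted p = 0.0027). Rrs1 was flat at 61.3 to 66.1 (day means 6.01, 6.02 and 6.02 on the log2 scale), and Polr1b, Bysl, Nop14, Ubtf, Tcof1 and Mybbp1a also moved by 0.13 or less between day means.

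In OSKM-ESCs the orders of days 18 and 25 were mixed. Day 18 above day 25 above day 38 was the order of 20 genes (14.4% of all genes). Another 12 had day 25 above day 18 above day 38 (10.6%), and 10 had day 25 above day 38 above day 18 (14.1%). From day 25 to day 38 the mean of 8 of the 50 rose, against 60.9% of all genes (median change -0.12, 0.09 over all genes). From day 18 to day 38 that of 11 rose, against 55.9% (median -0.20, 0.06 over all genes). Among the 11 genes that passed, Tcof1 went from 52.0 and 67.6 to 92.9 and 95.2 and to 88.5 and 85.6 (adjusted p = 0.017), and Polr1b from 29.9 and 32.6 to 51.8 and 49.7 and to 40.6 and 40.7 (adjusted p = 0.0062). Nip7 went down, from 56 and 51.2 to 45.7 and 42.4 and to 35.3 and 35.8 (adjusted p = 0.013), and Pno1, a late 40S factor, from 95.2 and 81.2 to 56.7 and 70.9 and to 60 and 58.4 (adjusted p = 0.032).

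**Figure D4:**
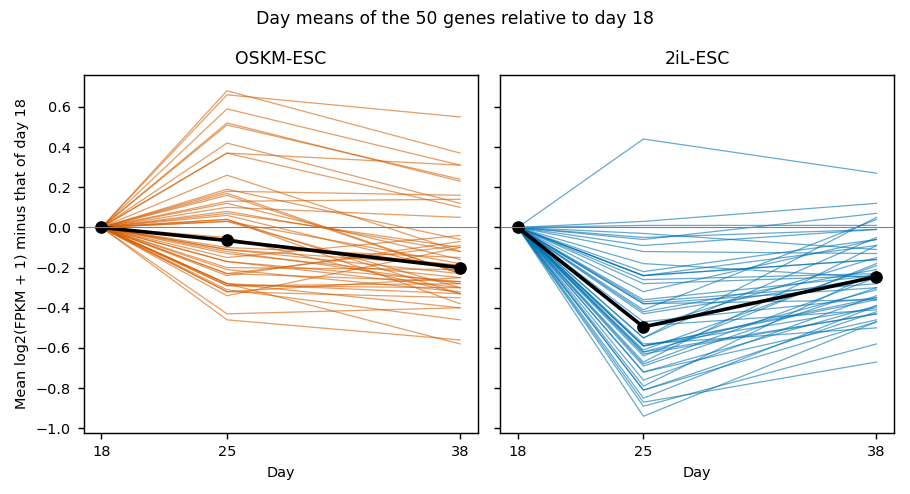
Day means of log2(FPKM + 1) minus that of day 18 (y axis) against day (x axis) in OSKM-ESCs (left) and 2iL-ESCs (right), 1 thin line a gene and the median of the 50 genes in black. The black line of 2iL-ESCs drops to -0.50 at day 25 and stands at -0.24 at day 38, whereas the lines of OSKM-ESCs spread to both sides at day 25.

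Other values moved with the days. In 2iL-ESCs the FPKM of all genes summed to 451622 and 448542 at day 18, 411619 and 411953 at day 25, and 435232 and 430059 at day 38. Genes over an FPKM of 1 numbered 11303 and 11329, 11831 and 11842, and 11567 and 11531 on these days. In OSKM-ESCs the sums were 447173 and 427641, 407071 and 410410, and 407626 and 416479. In 2iL-ESCs Fn1 (fibronectin, on the fibroblast list but also made by other cells) was 68.0 and 71.5 at day 18, 282 and 277 at day 25 and 211 and 214 at day 38, while the other 15 fibroblast markers together stayed at 6.33 to 8.64. In OSKM-ESCs those 15 markers summed to 40.1 and 43.8 at day 18 and to 29.2 to 30.3 afterwards. Over all days 11 of 13 fibroblast markers that could be tested were higher in OSKM-ESCs (median log2 fold change 1.06), against 29.5% of all genes. The part of these values in the results above was not tested. The labels do not say whether the libraries of a day were harvested together, so that time in culture and harvest cannot be told apart.

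Neighbouring gene groups were listed to show what the 50 genes shared with them. Among all genes, 29.5% were higher and 24.4% lower over all days, 20.7% and 25.3% at day 25, and 25.7% and 17.7% at day 18. Of 95 other ribosome assembly factors, 36 were higher and 1 lower in OSKM-ESCs at day 25 (median log2 fold change 0.25), and 2 were higher and 12 lower at day 18 (-0.07). Over all days 19 were higher and 6 lower, from Urb2 (-0.73) and Ddx49 (-0.34) to Nle1 (0.54) and Wdr55 (0.56). Of 27 Myc targets outside the ribosome, 12 were higher and 4 lower at day 25 (median 0.25), and 2 were higher and 3 lower at day 18 (-0.13). Their counts over all days were 6 and 5 (median -0.03). Ccnd2, a D-type cyclin, led them at 2.46, and Tfrc, the transferrin receptor, and Ldha, lactate dehydrogenase A, were lower at -1.18 and -0.62.

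Of 79 cytosolic ribosomal protein genes, 1 was higher (Rpl15, 0.31) and 12 were lower over all days (29.5% and 24.4% of all genes). At day 38 the counts were 1 and 56 (median -0.21), against 34.6% and 25.2% of all genes. None differed by an interaction of medium and day at an adjusted p under 0.05 (37.9% of all genes). Across the days of 2iL 62 of 79 differed, against 50.8% of all genes. These genes, too, have many processed copies. Of 19 subunits specific to RNA polymerases II and III, 5 were higher and 3 lower over all days, with Polr3d at 0.73 and Polr2a at -0.46. Of 8 further Pol I subunits and factors only Ttf1, the terminator protein, passed (-0.36), and of 20 proliferation genes 3 were higher and 4 lower (median -0.09), among them Aurkb at 0.39 and Mcm6 at -0.36. Of the Myc partners, the antagonists Mxi1 and Mga were lower (-0.82 and -0.62) and Mxd4 was higher (1.26, from a mean of 0.287 to 2.09).

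In iPSCs none of the 50 genes passed the test in either direction, against 5.0% of 13653 genes higher and 2.96% lower in OSKM-iPSCs (683 and 404 genes; 422 and 440 after quantile normalization, where none of the 50 passed either). At an unadjusted p under 0.05 limma gave 0 higher and 5 lower (Polr1c, Ubtf, Noc4l, Pes1 and Nip7; 18.2% and 11.1% of all genes), the cutoff of the study gave 0 and 0 (11.5% and 6.33% of all genes), and a single fit of all 9 conditions, whose spread is shared with the ESC cultures, gave 2 higher (Imp3 and Utp14a) and 9 lower (25.2% and 15.2% of all genes). The median log2 fold change was -0.10 (0.09 over all genes), while Myc was 3.23-fold higher (adjusted p = 0.029). In 15 of the 50 genes both 2iL-iPSC clones lay above both OSKM-iPSC clones, against 25.4% of all genes, and in 3, Polr1e, Utp14a and Imp3, both OSKM-iPSC clones lay above, against 37.2%.

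Polr1c had the lowest log2 fold change, -0.75 (SE 0.21, adjusted p = 0.082), with 70.2 and 96.6 in OSKM-iPSCs and 126 and 154 in 2iL-iPSCs. Ubtf had 58.8 and 75.4 against 104 and 88.5 (-0.52, SE 0.18, adjusted p = 0.13), and Noc3l 13 and 12.7 against 22.6 and 15.2 (-0.49, SE 0.23). At the other end stood Utp14a (43.8 and 65.7 against 38.2 and 34.0; 0.56), Imp3 (55.1 and 63.4 against 36.1 and 49.8; 0.47) and Gnl3 (149 and 128 against 135 and 96.7; 0.27). The clones of one medium differed from each other by as much as the media in several of these. OSKM-iPSC clone 1 stood apart in its fibroblast markers, which without Fn1 summed to 117, against 8.82 in clone 3 and 6.92 and 4.55 in the 2iL-iPSC clones; the part of this in the values was not tested.

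The signed log2 fold change of OSKM over 2iL was higher in ESCs than in iPSCs for 5 of the 50 genes, against 5.55% of all genes, and lower for none, against 8.67% (811 and 1268 of all genes; 1102 and 994 after quantile normalization, with 7 and 0 of the 50); at an unadjusted p under 0.05 limma gave 16 and 1, against 12.2% and 18.2%. Without OSKM-iPSC clone 3 the count was 13 (9.24% of all genes), and without clone 1 it was 2, with 2 lower (9.48% and 14.3%). The 5 were Polr1c (-0.17 in ESCs and -0.75 in iPSCs, difference 0.58, adjusted p = 0.039), Rrp9 (0.30 and -0.19, difference 0.49), Nop16 (0.33 and -0.13, difference 0.46, adjusted p = 0.0062), Noc4l (-0.05 and -0.48, difference 0.43) and Bop1 (0.07 and -0.33, difference 0.40). All 5 were below 0 in iPSCs, and for Polr1c, Noc4l and Bop1 the ESC value was the one nearer to 0.

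Against MEFs nearly all of the 50 genes were higher in iPSCs of either medium. In OSKM-iPSCs 46 were higher (34.0% of all genes) and none lower (26.4%), with a median of 2.16-fold (1.14 over all genes). In 2iL-iPSCs 45 were higher (40.6%) and none lower (37.4%), with a median of 2.27-fold (1.07 over all genes). No gene was lower at an unadjusted p under 0.05 in limma either (28.7% and 38.1% of all genes). Both contrasts share the MEF libraries, and with 1 MEF library left out, whichever it was, the OSKM-iPSC contrast called 0 of all genes tested, the 50 included.

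Dkc1 changed most: 17.2 and 21.7 in MEFs, 81.3 and 117 in OSKM-iPSCs and 109 and 98.7 in 2iL-iPSCs, 4.86-fold (adjusted p = 0.0030) and 5.16-fold (adjusted p = 1.1e-04). Polr1b had 7.30 and 8.47 in MEFs, 29.6 and 36.7, and 41.6 and 39.7, 3.83-fold and 4.70-fold. Nhp2 had 56.4 and 61.4, 215 and 271, and 231 and 252, which is 4.06-fold and 4.05-fold. Tcof1 had 17.9 and 15.9, 55.5 and 67.9, and 85.3 and 66.8, or 3.50-fold and 4.29-fold. In all 4 genes every iPSC clone lay above both MEF libraries. These genes are shown for their large fold changes over MEFs, so this separation follows from the choice. The share of all genes with such separation was not counted.

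Among the abundant genes Npm1 was 568 and 632 in MEFs and 1643 to 2081 in the iPSC clones (2.81-fold and 3.22-fold), Ncl was 110 and 121 against 268 to 375 (2.71- and 2.73-fold), and Fbl was 78.3 and 85.0 against 191 to 242 (2.58- and 2.89-fold). Rrn3 was 20.8 and 22.4 against 51.4 to 68.4 (2.53- and 2.74-fold). All 6 abundant nucleolar proteins and all 8 snoRNP proteins were higher in 2iL-iPSCs, against 40.6% of all genes. Their median log2 fold changes were 1.40 for the nucleolar, 1.42 for the box C/D and 1.89 for the box H/ACA proteins. Those of the small-subunit processome and of 60S assembly were 1.01 and 1.10.

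The test was not passed by 4 genes in OSKM-iPSCs and by 5 in 2iL-iPSCs. Polr1d was 60.2 and 64.3 in MEFs, 72 and 74.8, and 71.1 and 76.5 (log2 fold changes 0.23 and 0.24, adjusted p = 0.10 and 0.067). Polr1a was 18.5 and 23.6, 34.8 and 25.0, and 25.8 and 35.9 (0.48 and 0.52, adjusted p = 0.13 and 0.064). Pno1 (0.22 and 0.36), Noc3l (0.03 and 0.53) and, in 2iL-iPSCs only, Imp3 (0.45, adjusted p = 0.057) were the others. Within Pol I the subunits thus ran from 0.23 for Polr1d to 1.94 for Polr1b in OSKM-iPSCs and from 0.24 to 2.23 in 2iL-iPSCs.

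**Figure D5:**
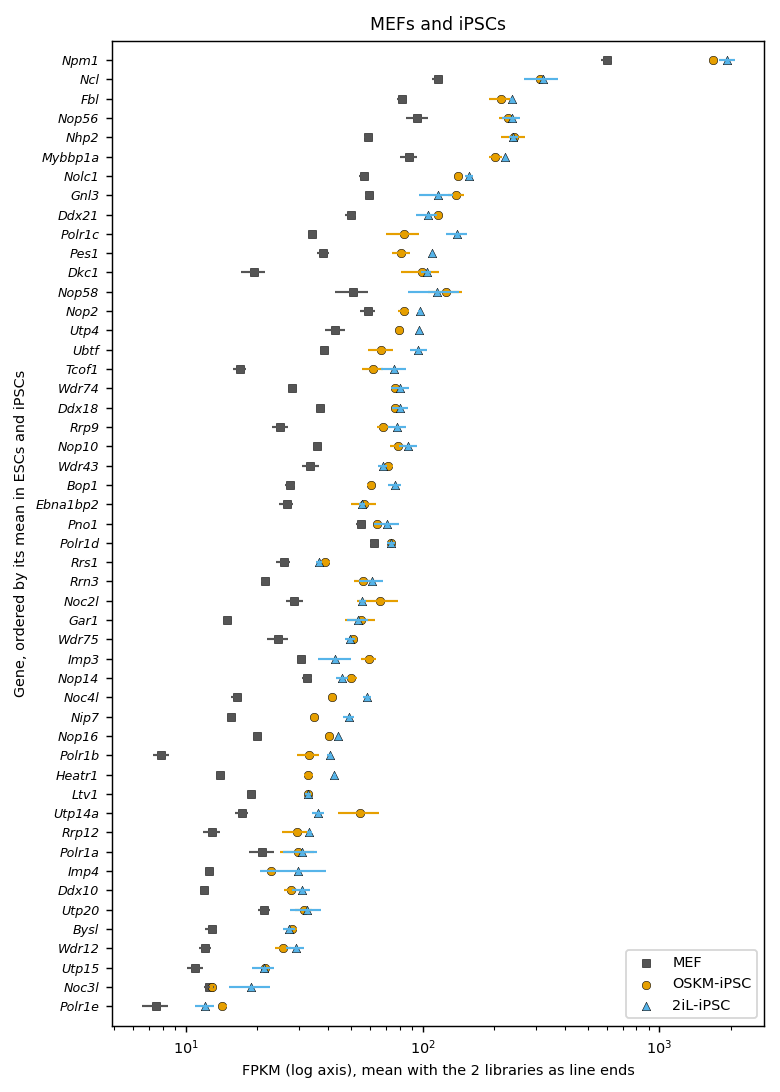
FPKM on a log axis (x) of the 50 genes (y, ordered by their mean in ESCs and iPSCs) in MEFs, OSKM-iPSCs and 2iL-iPSCs, with the mean as a symbol and the 2 libraries as the ends of each line. MEF symbols lie left of the iPSC symbols for nearly all genes, close to them for Polr1d and Pno1, and farthest from them for Dkc1 and Polr1b.

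These differences stood beside the other lists and the Myc genes. Against the 40.6% of all genes that were higher in 2iL-iPSCs than in MEFs, 20 of 20 proliferation genes were (median 5.52-fold), 83 of 95 other ribosome assembly factors (2.04-fold), 71 of 79 cytosolic ribosomal protein genes (1.59-fold) and 13 of 19 subunits of polymerases II and III (1.74-fold). In OSKM-iPSCs, where 34.0% of all genes were higher, the counts were 20 (5.82-fold), 83 (1.94-fold), 43 (1.41-fold) and 14 (1.61-fold) in the same order. Myc was lower in 2iL-iPSCs than in MEFs (log2 fold change -0.98, SE 0.11, adjusted p = 8.1e-04) and did not pass in OSKM-iPSCs (0.71, SE 0.28, adjusted p = 0.092), whereas Mycn was higher in both (4.44 and 4.43). MEFs differ from iPSCs in cell type, medium, passage and feeders at once, and these cannot be told apart.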

How the data were processed

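Poly-A RNA of 18 mouse libraries in 9 groups was analysed. The authors aligned reads with STAR 2.7.1a to GRCm38, kept uniquely mapped reads and quantified genes with StringTie 2.0, so a gene with near-identical copies loses reads. The deposited tables give FPKM and mean read coverage (a signal, used only for depth) per gene; counts were not used here. FPKM sums were not rescaled, so a change in a few abundant genes shifts all others. Of 55471 genes 2 with failed values were left out, and 11 IDs listed more than once were summed. Genes above an FPKM of 1 in any of the libraries compared were tested on log2(FPKM + 1) with limma 3.58.1 (empirical Bayes with trend, R 4.3.3), fitted per comparison over all genes, with Benjamini-Hochberg adjustment and a threshold of 0.05; fold changes are on that scale and understate low genes. Fits were tested on simulated data. The 50 genes, the gene lists and the cell type marker lists were chosen with earlier results of these data known. Values by library are given for 15 genes fixed by name and the 3 highest and 3 lowest in the all-day ESC, iPSC and MEF contrasts, and for others as examples chosen after their values were seen. Other named genes are the 2 highest and 2 lowest called genes of each list in ESCs, or fewer of them. Of the list symbols 4 had no match. Of all genes, 98.8% lay at their GENCODE M21 position. Promoters came from RefSeq (GRCm38.p6); for genes with several starts the one nearest the deposited gene start was used. Alternatives were other pseudocounts, filters, scalings, fits and left-out libraries.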

Additional observations from a re-analysis of the deposited data

Results flagged for a closer look

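Among the values by library, 54 sets of 6 libraries were tested for a library far from the others by Dixon's test at 95%, which chance passes in about 1 set in 20, and 2 sets passed. Utp14a was at 24.1 FPKM in OSKM-ESC day 25 replicate 1, while the other 5 OSKM-ESC libraries had 33.0 to 37.8. Polr1d was at 89.3 FPKM in OSKM-ESC day 18 replicate 1, and the others had 56.8 to 68.7.

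The contrast of the media differed between days in 24 of the 50 genes by the interaction test, against 37.9% of all genes. The contrast also differed between ESCs and iPSCs, by a test of that difference, in Polr1c (0.58 on the log2 scale, adjusted p = 0.039), Rrp9 (0.49, adjusted p = 0.028), Nop16 (0.46, adjusted p = 0.0062), Noc4l (0.43, adjusted p = 0.020) and Bop1 (0.40, adjusted p = 0.042), each in limma and each with the higher ratio of OSKM to 2iL in ESCs. Of all genes 5.55% passed that test in this direction and 8.67% in the other.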

How the results depend on the processing

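The cause of the changes below was not tested. Over all ESC days the count of 6 lower genes became 2 without a filter on low values and 2 with a replicate block, where 9 were higher, and 0, 14 and 0 without day 18, day 25 and day 38; the count of 11 higher genes became 5 without day 25, and the median of 0.06 became 0.16 without day 18 and -0.09 without day 25. With 1 library left out these ranged from 1 to 7, from 10 to 12 and from -0.00 to 0.08; each library of days 18 and 38 in either medium, left out alone, brought the lower count to 3 or fewer. A single fit of all conditions gave 3 higher at day 18, 3 higher and 5 lower at day 38, and 2 higher and 9 lower in iPSCs, and median-ratio scaling gave 19 lower at day 38 and 10 signed contrasts higher in ESCs than in iPSCs. The replicate block gave 3 higher at day 18 and moved no other count by more than 1.5 times; same-numbered cultures correlated at 0.131, 0.09 and 0.012 on the 3 days, so the numbers were not taken as pairs.

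Leaving out 1 library, with a lone library assumed to vary like the others, gave 0 to 3 higher and 0 to 6 lower at day 18, 4 to 34 higher and 0 to 1 lower at day 25, 4 to 7 higher and 7 to 9 lower at day 38, 0 to 43 higher in OSKM-iPSCs against MEFs (0 without either MEF library, where 0 of all genes were called) and 35 to 43 in 2iL-iPSCs, 1 to 22 and 32 to 40 across days in OSKM-ESCs and 2iL-ESCs, 14 to 30 by the interaction (14 without 2iL-ESC day 25 replicate 1), and 2 to 13 signed contrasts higher and 0 to 2 lower in ESCs than in iPSCs. Calls over all genes moved in these fits too. Between the iPSC media the counts were 0 without any 1 clone, which shows no stability without either 2iL-iPSC clone, where 0 of all genes were called; the medians were -0.14 to -0.04. The r of -0.82 with Myc in OSKM-ESCs kept its sign under its 5 alternatives, and that of 0.51 in 2iL-ESCs became -0.12 without the 2 libraries farthest in Myc and -0.69 with Mycn in place of Myc, an alternative chosen after seeing the data. Genes near 0 changed sign: Polr1a (-0.01), Polr1b (-0.01) and Utp20 (-0.01) with median-ratio scaling, Nop56 (0.06) and Gnl3 (0.03) with quantile normalization, and without 1 library Polr1a (-0.09 to 0.14), Polr1b (-0.04 to 0.07), Nop56 (-0.04 to 0.03), Utp20 (-0.05 to 0.06), Bop1 (-0.04 to 0.15), Gnl3 (-0.09 to 0.05) and Utp14a (-0.01 to 0.12). None of these passed the test. Over the 25 genes given by library, 39 alternative values lost the call (Dkc1, Polr1d, Utp4 and Tcof1), 8 gained it (Pes1, Polr1c and Heatr1) and 423 kept direction and call. Read counts were not used here, so no counting error is given.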
